A study of Mus musculus with 6 samples.

Results

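Fc receptors read the constant part of antibodies, and 7 genes of this system were followed in tumor-associated macrophages (TAMs) sorted from mouse melanomas. The genes were taken by symbol from the 39179 rows of the count table, and all 7 were found: the activating receptors Fcgr1, Fcgr3 and Fcgr4, the inhibitory receptor Fcgr2b, the signaling subunit Fcer1g, the kinase Syk and the neonatal receptor Fcgrt. All 7 were among the 8793 genes with enough reads for testing.

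Each library was made from TAMs of pooled subcutaneous tumors in C57BL/6 hosts of 8 weeks, and 3 libraries were compared with 3. The tumor cells were of a melanoma line driven by mutant BRAF, either parental and able to make prostaglandins through COX-1 and COX-2 (Ptgs-competent) or with Ptgs1 and Ptgs2 both removed by CRISPR (Ptgs-deficient). The hosts were wild-type in both groups, so that the edit lay in the tumor cells and not in the macrophages sequenced, and the libraries cannot check it. TAMs were gated as positive for CD45, CD11b and F4/80, negative for NK1.1 and Ly6G and negative or dim for Ly6C, and the study's methods state that Fc receptors were blocked with antibody before staining. The labels do not say that the libraries of a group came from separate experiments, so that p-values measure the spread between these libraries.

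The 3 activating receptors bind IgG in immune complexes and signal through the Fc receptor gamma chain encoded by Fcer1g, whose immunoreceptor tyrosine-based activation motif (ITAM) recruits Syk. The inhibitory receptor, encoded by Fcgr2b, binds the same complexes and recruits the lipid phosphatase SHIP-1 through an inhibitory motif, so that the balance of both kinds sets the threshold for phagocytosis and cytokine release by macrophages. Fcgr1 encodes the high-affinity receptor and is a known target of interferon-gamma, as is Fcgr4. FcRn, the product of Fcgrt, pairs with beta-2-microglobulin and binds IgG and albumin in acidic endosomes, where it protects them from breakdown.

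In the GRCm38 assembly, 4 of the 7 genes lie on 1 stretch of chromosome 1. Fcgr2b (ENSMUSG00000026656, chr1:170958617-170976547, minus strand), Fcgr4 (ENSMUSG00000059089, chr1:171018920-171029761, plus strand), Fcgr3 (ENSMUSG00000059498, chr1:171051174-171064935, minus strand) and Fcer1g (ENSMUSG00000058715, chr1:171229572-171234365, minus strand) are the genes found there. Fcgr1 (ENSMUSG00000015947, chr3:96282909-96293969, minus strand) and Fcgrt (ENSMUSG00000003420, chr7:45092990-45103851, minus strand) are on chromosomes 3 and 7. Syk (ENSMUSG00000021457, chr13:52583173-52648792, plus strand) is on chromosome 13. All are protein-coding, and a count sums reads over the whole gene, so that no value can be placed in 1 exon.

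The DNA just before the start of 3 of these genes is shown because they are the pair of interferon-gamma targets and the inhibitory receptor they are compared with. The sequences are the 250 bases before the RefSeq start (GRCm38.p6), 5′ to 3′ on the strand of the gene, at chr3:96293970-96294219 for Fcgr1, chr1:171018676-171018925 for Fcgr4 and chr1:170976072-170976321 for Fcgr2b. Capitals mark GAAA, any 2 bases and GAAA again, the form of an interferon-stimulated response element, and GAGGAA on either strand, the core letters bound by the myeloid factor PU.1.
Fcgr1: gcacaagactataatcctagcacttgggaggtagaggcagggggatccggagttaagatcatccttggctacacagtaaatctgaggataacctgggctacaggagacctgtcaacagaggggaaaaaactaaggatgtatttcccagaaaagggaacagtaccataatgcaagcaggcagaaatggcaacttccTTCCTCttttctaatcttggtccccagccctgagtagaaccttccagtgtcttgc
Fcgr4: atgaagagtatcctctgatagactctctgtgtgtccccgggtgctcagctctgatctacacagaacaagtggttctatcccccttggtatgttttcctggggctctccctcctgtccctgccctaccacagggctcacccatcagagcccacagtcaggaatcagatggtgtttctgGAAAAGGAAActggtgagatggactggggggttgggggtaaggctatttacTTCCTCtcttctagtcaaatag
Fcgr2b: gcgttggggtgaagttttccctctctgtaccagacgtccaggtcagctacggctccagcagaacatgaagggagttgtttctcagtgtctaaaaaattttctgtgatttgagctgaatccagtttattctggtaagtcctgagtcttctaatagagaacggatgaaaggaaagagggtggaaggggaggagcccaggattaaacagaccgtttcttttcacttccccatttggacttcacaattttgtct

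The interferon-stimulated form was found 73 to 64 bases before the start of Fcgr4 and in no other member. It is held by 2.98% of the 32851 RefSeq promoter windows of this length. Each motif was searched on both strands, and the letters were chosen after the sequences were at hand. A match in letters describes the sequence and shows no binding.

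GAGGAA stood on the opposite strand close to the start of all 3 activating receptors and was not found in the window of Fcgr2b. The windows around it are shown with the site in capitals, so that the letters beside it can be compared between the 3 genes.
Fcgr1: ggcaacttccTTCCTCttttctaatc
Fcgr3: gtccatttccTTCCTCtttttgtag
Fcgr4: ggctatttacTTCCTCtcttctagtc

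These lie at chr3:96294009-96294034 (minus strand), chr1:171059395-171059419 (minus strand) and chr1:171018894-171018919 (plus strand), and the sites begin 55, 15 and 22 bases before the start. The Fcgr3 site is counted from the farther of 2 RefSeq starts and begins 6 bases before the nearer one. The same letters were also in 1 of 2 Syk windows, in no window of Fcer1g or Fcgrt, and in 23.3% of all windows.

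The libraries held 4431184 to 8760679 counts and 7794 to 10714 genes with a count, and edgeR called 19 genes (0.216% of those tested) at a false discovery rate (FDR) up to 0.05 where the log2 fold change was also 1.5 or beyond in size. Correlations across genes of log2 CPM (counts scaled to library size) were 0.48 to 0.55 within the Ptgs-competent group and 0.60 to 0.72 within the Ptgs-deficient group, and 0.41 to 0.62 between libraries of different groups. Of the 10 macrophage markers, 9 had a log2 fold change above 0, with a median of 0.76. In the edgeR test 5 of them had an unadjusted p under 0.05, all higher in Ptgs-deficient libraries, where 5.0% of all genes passed with a higher level. The summed CPM of the 10 markers was 6511 to 18290 in Ptgs-competent and 21234 to 25556 in Ptgs-deficient libraries. Ptgs-competent replicate 3 held the lowest sum. It also held the most reads of Sparc, a stromal and melanoma matrix gene (1128, 765 and 2785 counts against 124, 148 and 178). The log2 fold change of Sparc was -3.56 (edgeR unadjusted p = 3.1e-04, FDR = 0.076). Sparc was called by the edgeR likelihood ratio test, DESeq2 and limma-voom, as were 2.74%, 3.83% and 1.4% of all genes. The summed markers of melanoma and stroma were 250.1 to 866.5 against 44.3 to 99.2 CPM, with Dct, Tyr, Tyrp1, Pmel, Mlana and Sox10 at 0 throughout. Mitf of the same list lay the other way, at 1.91, 0 and 0.647 against 10.6, 44.3 and 18.2 CPM (edgeR unadjusted p = 0.076, FDR = 0.703). Mitf did not overlap, as for 11% of all genes in this direction. Monocyte markers summed to 852.7 to 2431 against 4540 to 5198 CPM, most of it F13a1 and Ccr2, with Vcan the other way (26.6, 85.2 and 31.0 against 0, 17.1 and 0 CPM). Ly6c2, which encodes a Ly6C antigen of the gate, was at 49.2, 33.8 and 0.216 against 96.5, 282.6 and 238.8 CPM (edgeR unadjusted p = 0.031, FDR = 0.454). Of the monocyte list the quasi-likelihood test called 0 genes, against 0.216% of all genes. The edgeR likelihood ratio test and limma-voom both called Ccr2 and F13a1, against 2.74% and 1.4% of all genes. DESeq2 called Ccr2, against 3.83%. Neutrophil markers summed to 620.6 to 724.5 against 451.7 to 531.5 CPM with Ly6g at 0. Of that list, S100a8 and S100a9 had log2 fold changes of -1.07 and -0.74. Retnlg went the other way, at 20.2, 59.9 and 16.2 against 123.0, 113.6 and 180.2 CPM (log2 fold change 2.11, edgeR unadjusted p = 0.0091, FDR = 0.298). Retnlg did not overlap, as for 11% of all genes in this direction. NK cells, mast cells and B cells also carry members of the receptor family. Markers of NK cells reached at most 166.8 CPM in a library, with Ncr1, Klre1, Prf1 and Gzmb at 0, and 164.5 CPM of that value was Klra4 alone, in Ptgs-competent replicate 3. Those of B and plasma cells reached 91.8 CPM, all of it Sdc1, with Cd79a, Ms4a1 and Pax5 at 0 in every library and Cd79b at 0 to 163 counts. Those of mast cells reached 47.3 CPM with Kit and Mcpt8 at 0, of dendritic cells 26.5 CPM with Zbtb46, Xcr1, Itgae and Ccr7 at 0, and of T cells 7.38 CPM. The part of these shifts in the receptor values was not tested beyond the scaling to macrophage markers given with the changes. In such bulk libraries, fewer cells of a type and less RNA per cell cannot be told apart.

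Fcgr1, the high-affinity receptor, was read at 274.1, 145.7 and 77.0 CPM in Ptgs-competent replicates 1, 2 and 3 and at 326.2, 324.0 and 297.4 CPM in the Ptgs-deficient replicates. Every Ptgs-deficient library was above every Ptgs-competent one, and the Ptgs-deficient values were close together where the Ptgs-competent ones were scattered. Means were 165.6 ± 100.1 and 315.9 ± 16.1 CPM (SD, n = 3 each). The log2 fold change, Ptgs-deficient over Ptgs-competent, was 0.93 ± 0.46 (SE, 95% interval -0.10 to 1.96), which the edgeR quasi-likelihood test did not separate from 0 after adjustment (unadjusted p = 0.071, FDR = 0.688).

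Fcgr3, the low-affinity activating receptor also found on NK cells and neutrophils, was read at 708.1, 1004.0 and 281.9 CPM against 1171, 1040 and 1275 CPM. The groups did not overlap, although Ptgs-competent replicate 2 lay just under the lowest Ptgs-deficient library. Its log2 fold change was 0.81 ± 0.43 (SE, 95% interval -0.14 to 1.76, n = 3 each; edgeR unadjusted p = 0.088, FDR = 0.746).

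Fcgr4, an activating receptor of monocytes, macrophages and neutrophils, was read at 97.9, 69.4 and 9.48 CPM in Ptgs-competent libraries and 157.8, 91.1 and 138.6 CPM in Ptgs-deficient libraries, so that the groups overlapped. The lowest value came from 44 reads in Ptgs-competent replicate 3. Its log2 fold change was 1.13 ± 0.75 (SE, 95% interval -0.54 to 2.80; edgeR unadjusted p = 0.162, FDR = 0.91), and 0.67 without that library.

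Fcgr2b, the inhibitory receptor, was read at 291.2, 251.1 and 111.9 CPM in Ptgs-competent libraries and at 236.7, 242.0 and 252.7 CPM in Ptgs-deficient libraries. The Ptgs-deficient values lay inside the range of the Ptgs-competent ones. The log2 fold change was 0.16 ± 0.41 (SE, 95% interval -0.76 to 1.08; edgeR unadjusted p = 0.704), and it was -0.10 without Ptgs-competent replicate 3.

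**Figure D1:**
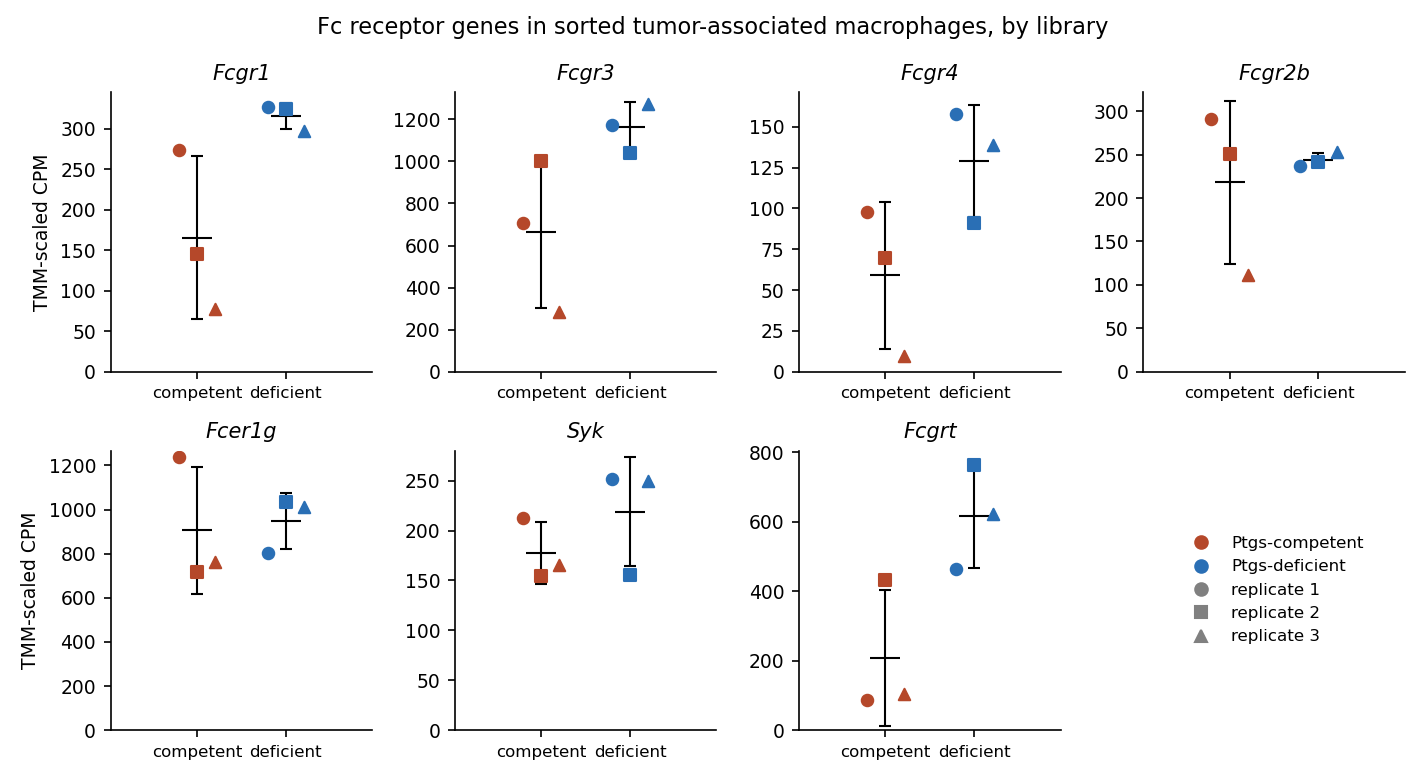
TMM-scaled CPM (vertical axes from 0, each gene on its own scale) of the 7 Fc receptor genes in 3 Ptgs-competent and 3 Ptgs-deficient TAM libraries; symbols mark the replicate, horizontal bars the mean and whiskers the SD. Fcgr1, Fcgr3 and Fcgrt do not overlap between the groups, while the 3 Ptgs-deficient values of Fcgr2b (236.7 to 252.7 CPM) fall within the Ptgs-competent range (111.9 to 291.2 CPM).

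Fcer1g, the subunit through which the activating receptors are brought to the surface and signal, was read at 1237, 714.9 and 763.5 CPM against 801.2, 1034 and 1010 CPM. The groups overlapped fully, and the log2 fold change was 0.07 ± 0.32 (SE, 95% interval -0.65 to 0.78; edgeR unadjusted p = 0.838). Without Ptgs-competent replicate 2 it was -0.08.

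Syk, the kinase recruited by the phosphorylated ITAM, was read at 212.9, 154.1 and 165.1 CPM against 251.6, 155.6 and 249.8 CPM. Ptgs-deficient replicate 2 was as low as the Ptgs-competent libraries. The log2 fold change of Syk was 0.30 ± 0.37 (SE, 95% interval -0.53 to 1.14; edgeR unadjusted p = 0.436).

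Fcgrt, which encodes FcRn, had the largest fold change of the 7 genes with all 6 libraries. It was read at 87.0, 433.1 and 103.2 CPM in Ptgs-competent libraries and at 462.7, 763.4 and 623.1 CPM in Ptgs-deficient libraries. The groups did not overlap, and Ptgs-competent replicate 2 was far above the other Ptgs-competent libraries. Means were 207.8 ± 195.3 and 616.4 ± 150.5 CPM (SD, n = 3 each), a 2.97-fold difference. The log2 fold change was 1.57 ± 0.59 (SE, 95% interval 0.26 to 2.88), with an unadjusted p of 0.023 and an FDR of 0.388 in the edgeR test. Without Ptgs-competent replicate 2 the log2 fold change was 2.70 (edgeR FDR = 0.069), and limma-voom, which weighted the libraries by quality, gave 2.12 (FDR = 0.013). It was 1.20 without Ptgs-competent replicate 1 and 1.39 without Ptgs-deficient replicate 2 (edgeR FDR = 0.439 and 0.785), and 0.81 (FDR = 0.644) when libraries were scaled to macrophage markers.

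Counted over the family, 0 of 7 genes were called by the edgeR quasi-likelihood test, against 0.216% of all genes tested. The edgeR likelihood ratio test and DESeq2 also called 0, against 2.74% and 3.83% of all genes, and limma-voom called 1, Fcgrt, against 1.4%. In the edgeR quasi-likelihood test Fcgrt was the only member with an unadjusted p under 0.05, a mark that 8.83% of all genes passed and 5.0% passed with a higher level in Ptgs-deficient libraries. Limma-voom also gave Fcgr1 and Fcgr3 an unadjusted p of 0.040 and 0.012 (FDR = 0.367 and 0.214), where 12.5% of all genes had a p under 0.05. Fcgr1, Fcgr3 and Fcgrt (3 of 7) did not overlap and were higher in Ptgs-deficient libraries, as were 970 genes or 11% of all, whereas 8.01% of all genes and none of these 7 did not overlap and were lower. Without Ptgs-competent replicate 3 the same 3 members did not overlap, against 15.9% of all genes. All 7 log2 fold changes were above 0, with a median of 0.81, beside a median of 0.02 over all genes tested, of which 50.7% were above 0.

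The 7 values share the same libraries and are not separate evidence. Libraries were also scaled to the geometric mean of the macrophage marker counts in place of all genes, a choice made after seeing the data. Fcgr1, Fcgr3, Fcgr4 and Fcgrt then had log2 fold changes of 0.21, 0.10, 0.65 and 0.81. Those of Fcgr2b, Fcer1g and Syk were below 0 under that scaling (-0.60, -0.92 and -0.76), which moved the median of all genes to -0.98. Relative to that median the members were at 1.19, 1.08, 1.63 and 1.79 for the first 4 and at 0.38, 0.06 and 0.23 for Fcgr2b, Fcer1g and Syk. In limma-voom, where the median of all genes was 0.39, Fcgr2b, Fcer1g and Syk lay below it by that measure (-0.23, -0.29 and -0.23). Without Ptgs-competent replicate 3, Fcgr2b and Fcer1g were at -0.24 and -0.13 relative to the median. Fcer1g was at -0.10 without Ptgs-competent replicate 2 and at -0.16 with the replicate block.

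**Figure D2:**
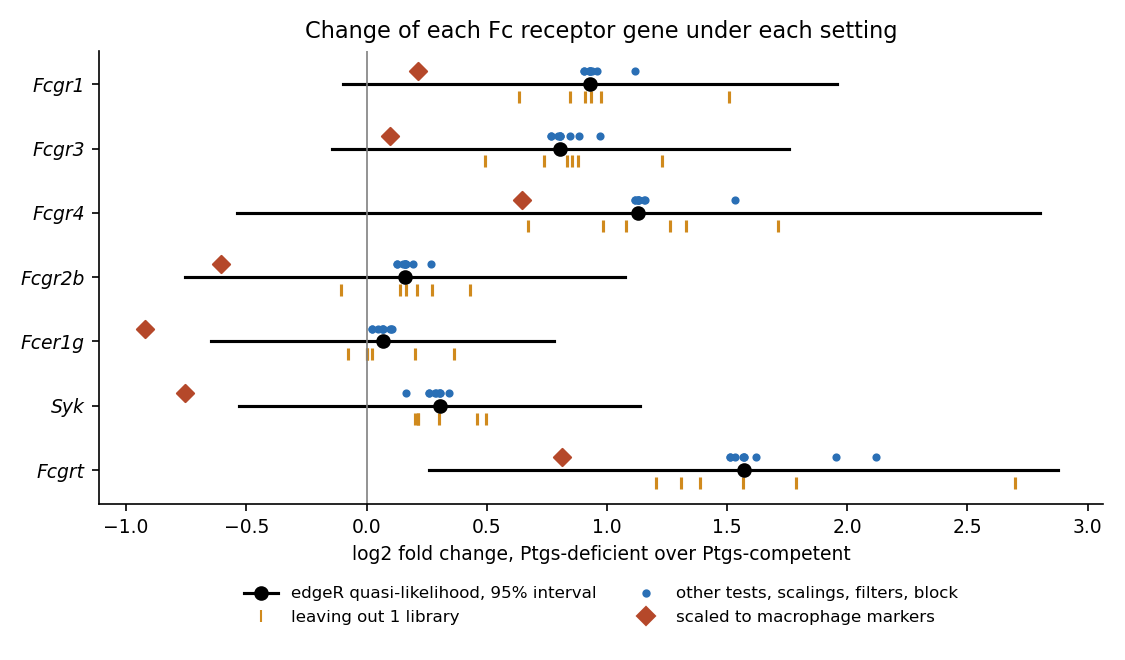
Log2 fold change (horizontal axis, Ptgs-deficient over Ptgs-competent) of each Fc receptor gene by the edgeR quasi-likelihood test with its 95% interval (black), leaving out 1 library (orange ticks), under other tests, scalings and filters (blue) and scaled to macrophage markers (red diamonds). Only the interval of Fcgrt (0.26 to 2.88) lies above 0, and Fcgr2b, Fcer1g and Syk are below 0 when scaled to macrophage markers.

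Setting an activating receptor against the inhibitory one inside a library removes the choice of scaling, and this was the comparison of activating with inhibitory receptors. Because reads come from the 3′ end and capture differs between genes, a ratio is read only for how it moves between libraries. All 3 ratios to Fcgr2b were higher in every Ptgs-deficient than in every Ptgs-competent library, which held for 8.72% of the 8792 genes other than Fcgr2b.

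The ratio of Fcgr1 to Fcgr2b reads was 0.941, 0.580 and 0.688 in Ptgs-competent and 1.38, 1.34 and 1.18 in Ptgs-deficient libraries. The highest Ptgs-competent library lay below the lowest Ptgs-deficient one. The mean log2 ratio moved from -0.47 ± 0.35 to 0.37 ± 0.12 (SD, n = 3 each), a difference of 0.84, or 1.79-fold.

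The ratio of Fcgr3 to Fcgr2b was 2.43, 3.998 and 2.52 against 4.95, 4.30 and 5.05, a log2 difference of 0.71, or 1.64-fold. Ptgs-competent replicate 2 was close to the lowest Ptgs-deficient library. The ratio of Fcgr4 to Fcgr2b was 0.336, 0.276 and 0.085 against 0.667, 0.376 and 0.549, a log2 difference of 1.37, or 2.58-fold. Without Ptgs-competent replicate 3 the Fcgr4 difference was 0.76.

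An exact two-sided permutation test over libraries gave p = 0.1 for each of the 3 ratios, also after Benjamini-Hochberg adjustment over them, and 0.1 is the smallest p that 3 against 3 allows. The 3 ratios share their denominator. Without Ptgs-competent replicate 3 the ratios of these 3 receptors still did not overlap, against 19.9% of all genes. Of the other 6 members, Fcgr1, Fcgr3, Fcgr4 and, as seen afterwards, Fcgrt had a ratio that did not overlap, with or without that library.

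**Figure D3:**
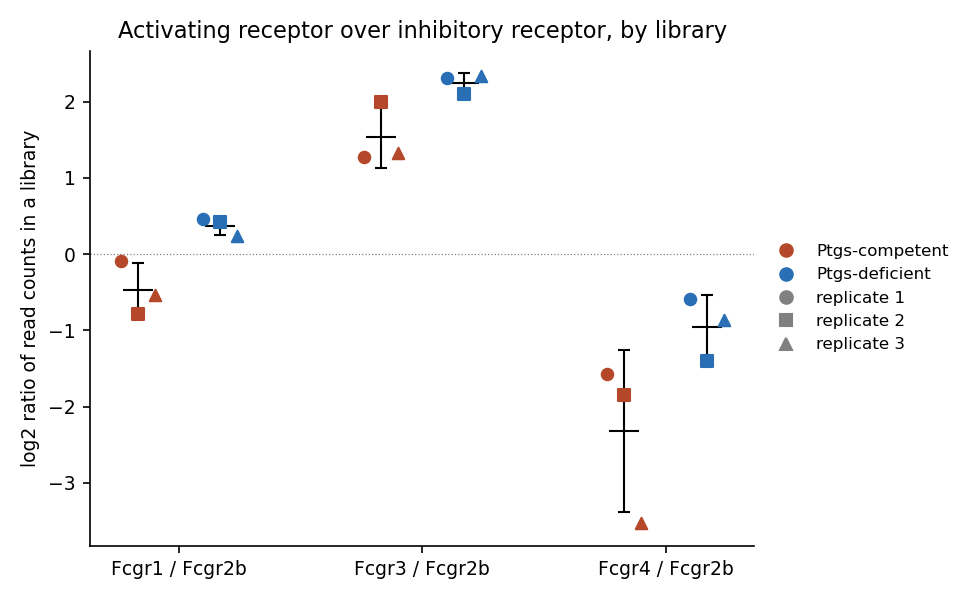
Log2 ratio of read counts (vertical axis) of Fcgr1, Fcgr3 and Fcgr4 to Fcgr2b inside each library, with mean and SD over 3 libraries per group. In each ratio the 3 Ptgs-deficient libraries lie above the 3 Ptgs-competent ones, and Ptgs-competent replicate 3 is the lowest for Fcgr4.

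Summed over the activating receptors, there were 3.71, 4.85 and 3.29 reads per read of Fcgr2b in Ptgs-competent libraries and 6.995, 6.01 and 6.77 in Ptgs-deficient libraries. Fcgr2b took 21.2%, 17.1% and 23.3% of the reads of the 4 receptors in the first group and 12.5%, 14.3% and 12.9% in the second. No overlap was seen in this share. Fcgr3 held most of the reads everywhere, from 51.6% to 68.3%, and its share overlapped between the groups. The share of Fcgr1 (9.91% to 19.99% against 15.1% to 19.1%) and that of Fcgr4 (1.97% to 7.14% against 5.37% to 8.34%) overlapped as well.

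**Figure D4:**
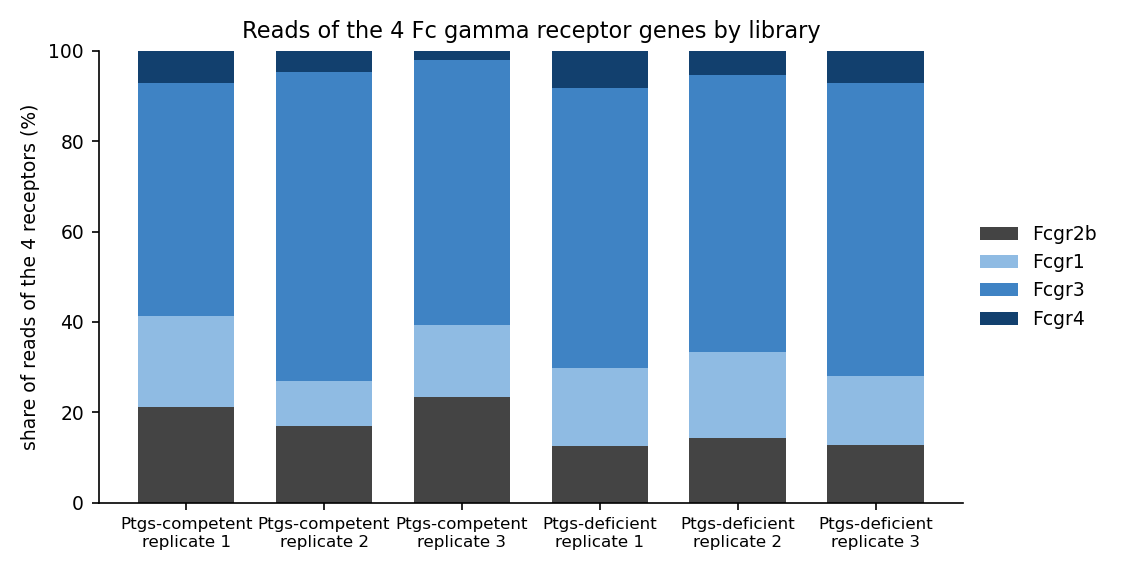
Share (%) of the reads of the 4 Fc gamma receptor genes taken by each in every library, stacked to 100%. The grey part at the bottom, Fcgr2b, is 17.1% to 23.3% in Ptgs-competent and 12.5% to 14.3% in Ptgs-deficient libraries.

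Set against Fcer1g, whose protein the activating receptors need, Fcgr1 was at 0.222, 0.204 and 0.101 reads per read of Fcer1g in Ptgs-competent libraries and at 0.407, 0.313 and 0.294 in Ptgs-deficient libraries. The groups did not overlap for Fcgr1, as for 10.5% of all genes set against Fcer1g, and overlapped for Fcgr3, Fcgr4, Fcgr2b and Syk set against the same gene. Fcgr2b and Fcgr3 are close relatives whose annotated transcripts share 238 words of 30 bases, and the treatment of reads with several alignments was not stated. No word was common to the last 500 bases of both genes, where 3′ reads are expected. Matches between the end of either gene and an inner part of the other were not looked for. No other pair of the 4 receptors shared any word.

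For FcRn, the partner chain was compared as well. B2m, which encodes beta-2-microglobulin of FcRn and of MHC class I, had 8268, 11789 and 3667 counts against 19042, 49065 and 18978, with a log2 fold change of 1.71 ± 0.40 (SE; edgeR unadjusted p = 0.0015, FDR = 0.148). B2m was called by the edgeR likelihood ratio test, DESeq2 and limma-voom, as were 2.74%, 3.83% and 1.4% of all genes. The ratio of Fcgrt to B2m overlapped between the groups (0.066, 0.224 and 0.131 against 0.133, 0.131 and 0.159). An antisense gene, Gm45669, overlaps the 3′ part of Fcgrt and another, Gm38204, the 5′ part of Fcgr2b in GENCODE M21. Neither was analysed here, and since the strand setting was not stated their reads cannot be told from those of the receptors.

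Among 14 other Fc receptor and receptor-like genes, 2 had enough reads for testing. These were B2m and Fcrls, a scavenger receptor-like member of the family found on macrophages, which was at 204.2, 74.8 and 131.3 against 229.0, 264.5 and 307.5 CPM (log2 fold change 0.96 ± 0.43, edgeR unadjusted p = 0.0498, FDR = 0.565). The groups did not overlap for Fcrls, as for 11% of all genes in this direction. The receptor genes of IgE (Fcer1a, Ms4a2, Fcer2a), of IgM and IgA (Faim3, Fcamr, Pigr) and Fcrla, Fcrl5 and Fcrl6 were at 0 counts in all 6 libraries, which allows up to 0.342 to 0.677 CPM by counting error.

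The ligands were nearly absent as transcripts. Of 10 immunoglobulin constant-region and joining-chain genes, 9 were at 0 in all libraries, among them Ighg1, Ighg2b, Ighg2c, Ighg3 and Igkc. Ighm, the heavy chain of IgM, had 0 counts in each Ptgs-competent library and 82, 137 and 433 in the Ptgs-deficient ones (edgeR unadjusted p = 0.0031, FDR = 0.198). Ighm was called by the edgeR likelihood ratio test and DESeq2, as were 2.74% and 3.83% of all genes, but not by limma-voom. The B cell markers Cd79a, Ms4a1 and Pax5 were at 0 in the same libraries. Cd79b, another B cell marker, had 46, 163 and 0 counts against 0, 124 and 79, and Fcrl1, a receptor-like gene of B cells, had 0 in each Ptgs-competent library and 82, 20 and 0 in the Ptgs-deficient ones. Antibody bound to the receptors is protein and is not measured by these reads.

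For the following 3 lists of genes below the receptors, the edgeR likelihood ratio test, DESeq2 and limma-voom called 0 genes as well. Of all genes these tests called 2.74%, 3.83% and 1.4%. The ITAM cascade of Src-family kinases, adaptors and lipid enzymes had 29 of 30 genes tested and 0 called by edgeR, with 14 log2 fold changes above 0 and 15 below, a median of -0.16 and 0 at an unadjusted p under 0.05. Over all genes, 0.216% were called, 50.7% were above 0 and 8.83% had such a p. The 3 with the smallest p were Bcl10, an adaptor to NF-kappaB (2.14 ± 1.03), Plcg2, the phospholipase that releases calcium (1.23 ± 0.69), and Lcp2, the adaptor SLP-76 (2.25 ± 1.28, all log2 fold change ± SE), with edgeR unadjusted p of 0.065 to 0.108. Lcp2 rested on 208, 47 and 3 reads against 395, 719 and 194.

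On the inhibitory side, 15 of 16 phosphatases and adaptors were tested and 0 called, with 6 log2 fold changes above 0, 9 below, a median of -0.61 and 2 at an unadjusted p under 0.05, 1 in each direction, where 8.83% of all genes passed. Ubash3b, a phosphatase that acts on Syk, was at 128.8, 147.5 and 113.8 CPM against 49.1, 72.6 and 42.6 CPM, with no overlap, as for 8.01% of all genes in this direction. Its log2 fold change was -1.25 ± 0.50 (SE; edgeR unadjusted p = 0.032, FDR = 0.456). Csk, which holds Src-family kinases inactive, was at 114.0, 80.9 and 46.6 against 154.2, 179.2 and 180.7 CPM, also with no overlap, as for 11% of all genes in this direction (1.09 ± 0.46, edgeR unadjusted p = 0.041, FDR = 0.511). Inpp5d, which encodes SHIP-1, the phosphatase recruited by the Fcgr2b receptor, was at 199.1, 43.5 and 145.3 against 47.3, 66.1 and 93.9 CPM and overlapped (-0.90 ± 0.62, edgeR unadjusted p = 0.177). Dok3, an adaptor that restrains ITAM signals, also overlapped (-1.31 ± 0.89, edgeR unadjusted p = 0.173).

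The machinery of the phagocytic cup, which drives actin around an opsonized particle, had 31 of 32 genes tested and 0 called by edgeR, with 24 log2 fold changes above 0, 7 below, a median of 0.31 and 2 at an unadjusted p under 0.05, both higher in Ptgs-deficient libraries, where 50.7% of all genes were above 0 and 5.0% passed with a higher level. Actr3, a subunit of the actin-branching Arp2/3 complex, was at 151.9, 100.1 and 140.5 against 291.2, 319.3 and 220.2 CPM, with no overlap, as for 11% of all genes in this direction. Its log2 fold change was 1.08 ± 0.37 (SE; edgeR unadjusted p = 0.015, FDR = 0.364). Dnm2, a dynamin that cuts off membrane, had 1.71 ± 0.76 (edgeR unadjusted p = 0.047, FDR = 0.554), and Cdc42 and Wasf2, which start actin growth, 0.81 ± 0.40 and 0.88 ± 0.49.

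**Figure D5:**
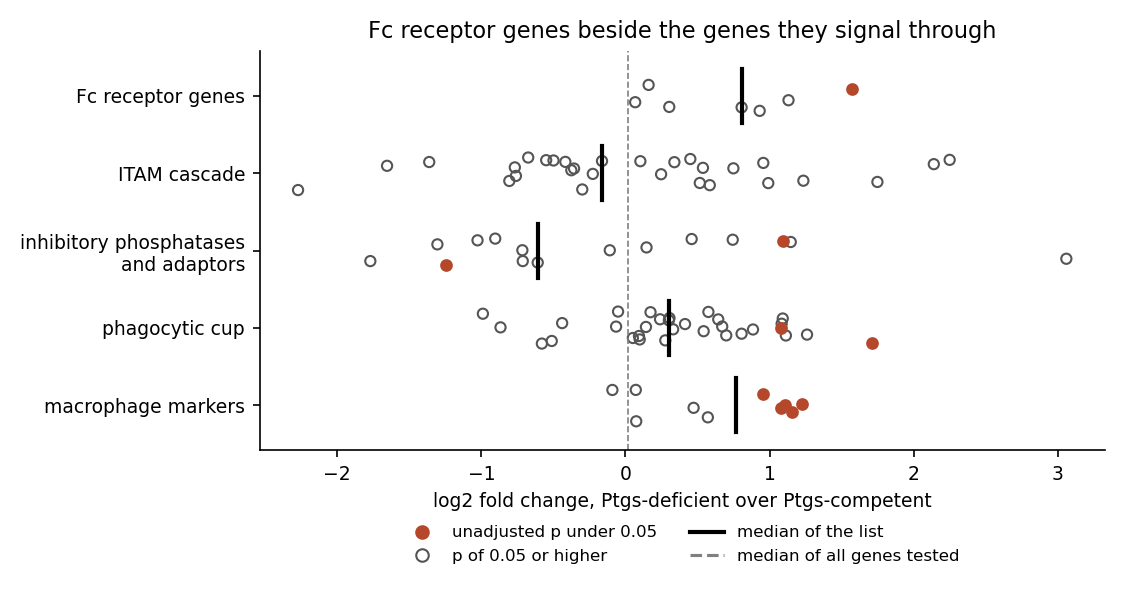
Log2 fold change (horizontal axis, Ptgs-deficient over Ptgs-competent) of each tested gene of the Fc receptor family, the ITAM cascade, the inhibitory phosphatases and adaptors, the phagocytic cup and the macrophage markers; filled points have an unadjusted p under 0.05, black bars are list medians and the dashed line is the median of all genes. The medians are 0.81 for the Fc receptor genes, -0.16 for the cascade, -0.61 for the inhibitory genes, 0.31 for the cup and 0.76 for the macrophage markers.

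Across the 6 libraries the log2 CPM of the 4 Fc gamma receptors moved together, with Pearson's r of 0.945 between Fcgr3 and Fcgr4, 0.932 between Fcgr1 and Fcgr4, 0.919 between Fcgr2b and Fcgr4 and 0.824 between Fcgr1 and Fcgr2b. Fcer1g correlated less with Fcgr3 (r = 0.208) and with Fcgrt (r = -0.141). These are descriptions over 6 points that share groups and a low library, Ptgs-competent replicate 3. Of 2978 genes with a mean of at least 50 CPM, the pattern most like Fcgr1 was that of Abhd12 (r = 0.998) and Atp6v0a1 (0.987). Nearest to Fcgr2b were Dcaf12 (0.998) and Arih2 (0.995), to Fcgr3 Nfil3 (0.994) and Vwa5a (0.989), and to Fcgr4 Rnf19b (0.997) and Grn (0.994). Between 53 and 92 genes had an r above 0.95 with each receptor.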

How the data were processed

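The authors deposited raw read counts per gene, not normalized, for 6 TAM libraries made with QuantSeq 3′ FWD from 800 pg of RNA. Per the study's methods, reads were trimmed with BBDUK, fqtrim and cutadapt, aligned with STAR to GRCm38 and assigned with featureCounts. Neither tool versions, strand setting and treatment of multiply aligned reads nor molecular identifiers were stated, so that floors at 0 counts cover counting error only. The 95% intervals come from the edgeR fit and include the spread between libraries. The table had 39179 genes, of which 13368 had a count, and no column lay outside the 6 libraries.

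Genes were kept by filterByExpr (minimum count 10, minimum total 15), scaled by TMM and tested with the edgeR 4.0.16 quasi-likelihood test in R 4.3.3, two-sided, with Benjamini-Hochberg adjustment over 8793 genes. Genes were called at FDR 0.05 and an absolute log2 fold change of 1.5, as the study defines it. The study names edgeR's test for generalized linear models, and its form (likelihood ratio or quasi-likelihood) is not stated. The SE was obtained from the log2 fold change and the F statistic of the test. Levels are CPM of the TMM-scaled library of tested genes. Ratios added 1 count to each gene for the log2 scale and were tested by exact permutation in scipy 1.17.1. The fit was also run on simulated counts with changes larger than those of the members, which cannot show how it treats changes of their size.

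The members, the companion lists and the rule for named genes were chosen with earlier results of these data known. Named were the 7 members, from each companion list every called gene and the 4 with the smallest p, and for each Fc gamma receptor the 2 other genes of at least 50 CPM with the highest r (log2 CPM, prior count 2). Positions are from GENCODE M21 and promoter sequences from RefSeq (GRCm38.p6), where all 7 members matched. Alternatives were the likelihood ratio test, DESeq2 1.42.0, limma-voom (limma 3.58.1), other scalings and filters, a replicate block and leaving out each library. Scaling to macrophage markers and the counts of non-overlapping genes without Ptgs-competent replicate 3 were added after seeing the data. A few items that the rule would name are not reported here.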

Additional observations from a re-analysis of the deposited data

How the results depend on the processing

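Of the 7 log2 fold changes, those of Fcgr1, Fcgr3, Fcgr4 and Fcgrt stayed above 0 under all 16 alternatives. Leaving out 1 library each gave 0.63 to 1.51 for Fcgr1, -0.10 to 0.43 for Fcgr2b, 0.49 to 1.23 for Fcgr3, 0.67 to 1.71 for Fcgr4, -0.08 to 0.36 for Fcer1g, 1.20 to 2.70 for Fcgrt and 0.20 to 0.50 for Syk. Fcgr2b turned below 0 without Ptgs-competent replicate 3 (-0.10) and Fcer1g without Ptgs-competent replicate 2 (-0.076), and with macrophage marker scaling Fcgr2b, Fcer1g and Syk were at -0.60, -0.92 and -0.76. Fcgrt alone was called in 2 settings, making 1 member called: limma-voom (2.12, FDR 0.013) and no filter on low counts (1.57, FDR 0.015). Its FDR was 0.013 to 0.785 over all alternatives, and the cause was not tested.

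The ratios to Fcgr2b stayed above 0, at 0.69 to 1.03 for Fcgr1, 0.58 to 0.94 for Fcgr3 and 0.76 to 1.74 for Fcgr4 without 1 library each, with exact p of 0.1 to 0.25 over the alternatives, none of which can reach 0.05. The count of genes called was 19, and 241 by the likelihood ratio test, 328 by DESeq2, 123 by limma-voom, 252 with no filter, 77 with the replicate block and 1 with macrophage marker scaling. Without 1 library it was 0 to 25 (0, 11 and 25 without Ptgs-competent replicates 1, 2 and 3, and 2, 4 and 3 without the Ptgs-deficient ones). With the replicate block the log2 fold change of Fcgrt was 1.95 (FDR 0.053) and 0 members were called. Libraries of the same number deviated together with r of -0.049, -0.022 and -0.022, so that no pairing by number was seen. With 3 libraries per group these r cannot settle whether the numbers mark pairs, which the labels do not state. With 3 libraries per group, 4431184 reads in the smallest and a common biological coefficient of variation of 1.26 across genes, the 95% intervals of Fcgr1, Fcgr3 and Fcgr4 include 0.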
